A study of Mus musculus with 21 samples.

Results

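The step around birth was followed in uncrushed mouse retinas, from the last embryonic day studied (E20) to postnatal day 1 (P1). Members were all genes of the deposited count and FPKM tables other than the Y-linked Kdm5d. The tables hold 51 rows for 46 genes, 5 rows being repeats, which left 45 genes, and 44 of these reached 10 counts summed over the compared libraries. The remaining gene, Lcn2, had 5 counts and was not tested. All tabulated genes are ones that the study named for a change in these same libraries, with age or after optic nerve crush, so a call below is not independent evidence of that change.

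The study sequenced messenger RNA, 1 retina to a library, from C57BL/6 mice at 3 ages, without crush (NTC, naïve control) or after optic nerve crush (ONC), in 21 libraries of 6 groups. The uncrushed step compared 4 P1_NTC with 3 E20_NTC libraries, and the same step after crush compared 3 P1_ONC with 3 E20_ONC libraries. Retinas of crushed groups were taken 6 hours after crush. No genetic change was introduced in any group, no sham operation is described, and all mice of an age were litter mates, which means that effects of litter and of age cannot be told apart. The paper kept pregnant mice until E20 or natural delivery, and describes anesthesia and killing of pregnant mice. Mode of delivery therefore cannot be told apart from age. The P1 libraries also carry another series of library numbers than those of E20, and this cannot be told apart from age either.

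In the mouse retina, ganglion, horizontal, amacrine and cone cells arise mostly before birth, while rods, the most numerous cells, are born in large numbers around and after birth. Rod precursors switch on Nrl first and the machinery of light detection later. Progenitor and neurogenic factors such as Fgf15, Foxn4 and Atoh7 recede as the pool of dividing cells is used up. Retinas were sequenced whole, so a lower level may come from fewer cells of a type or from less RNA per cell, which cannot be told apart.

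Short stretches near the starts of 3 photoreceptor genes are shown because each of these genes was called higher at P1 and they share a short motif there. The motif TAATCC, a core recognized by homeodomain factors of the OTX and CRX family, was searched on both strands within 250 bases before the gene start that RefSeq gives. It is in capitals, read as GGATTA where it lies on the opposite strand, and the sequences are those of RefSeq on GRCm38.p6, written 5′ to 3′ on the strand of the gene.
Cnga1, chr5:72642963-72642992, minus strand: agtgtctcatttTAATCCtaatgataaact
Gngt1, chr6:3993952-3993981, plus strand: tcatattaggggGGATTAtgaagaagcttt
Guca1a, chr17:47400607-47400706, minus strand: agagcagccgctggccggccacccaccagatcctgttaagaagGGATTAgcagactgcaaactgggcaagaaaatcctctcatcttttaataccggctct
The motif began 228 bases before the RefSeq start of Cnga1, 44 before that of Gngt1 and 57 before that of Guca1a. Measured from the gene start in the deposited tables, it lies 1295 bases inside Cnga1 and 172 bases inside Gngt1, and 79 bases before Guca1a, so only in Guca1a does it precede both starts. A promoter was matched for 5 of the 6 photoreceptor genes, and these 3 held the motif. Over all 32851 promoter windows of the same length, 6.25% held it. Among the 45 genes, 33 were matched and 4 held it, the other one being Spdef. Of the 250 bases searched, 250 in Cnga1 and 216 in Gngt1 lie in annotated exons of the same gene, from transcripts that start farther upstream. A match is a description of the letters in the window.

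Library totals implied by counts, FPKM and gene lengths ran from 15699321 to 19064906 in P1_NTC and from 15056378 to 19333818 in E20_NTC. The tabulated genes took 0.0836% to 0.126% of these totals. Kdm5d, which lies on the Y chromosome, had 666 and 658 counts in P1_NTC replicates 1 and 2 and 0 and 1 in replicates 3 and 4, against 1135 and 799 in E20_NTC replicates 1 and 2 and 0 in replicate 3. P1_NTC replicates with Kdm5d were nearer to each other (chi-square 2.61 per gene, Kdm5d left out) than to those without it (25.4 to 29.1), and the same held in E20_NTC (8.52 against 38.5 and 46.6). Steps within libraries with and without Kdm5d are given below, with no test, for genes where they differ by over 1.5-fold, which was so in 18 of 40 genes. Those without Kdm5d rest on 1 E20_NTC library.

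Photoreceptor genes rose, and most listed genes of the embryonic retina fell, in uncrushed retinas at P1. Of the 44 members tested, 17 were called higher and 16 lower in P1_NTC than in E20_NTC, and 11 were not called. Genes were called in edgeR's two-sided quasi-likelihood F test where the fold change exceeded 1.5 and the p-value, adjusted after Benjamini and Hochberg over all 45 genes tested (Kdm5d included), stayed under 0.1. Fitted changes are given on the log2 scale, P1 over E20, with ± for the standard error. That error was derived as the absolute change over the square root of F, so it is approximate. In that background 73.3% of genes were called, 37.8% higher and 35.6% lower, so most genes of these tables were called in 1 direction or the other. The median log2 fold change over the 44 members was 0.05. With TMM scaling 19 were called higher and 10 lower, and the median over the 45 genes tested was −0.03, against −0.24 with the library totals. TMM factors came from the tabulated genes alone, most of which were called, while the method assumes that most genes are unchanged. Calls lost or gained with it carry that limit. With the replicate number as a block, 19 were called higher and 20 lower. P1_NTC replicate 4, having no E20_NTC library of its number, adds nothing to that fit. The block leaves few degrees of freedom to measure the spread between libraries, a limit on every call gained with it below. For Ttr the standard error was 0.30 with the block and 0.90 in the main fit. Values of P1_NTC and E20_NTC libraries did not overlap in 28 of the 44 members, and in 62.2% of the 45 genes.

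**Figure D1:**
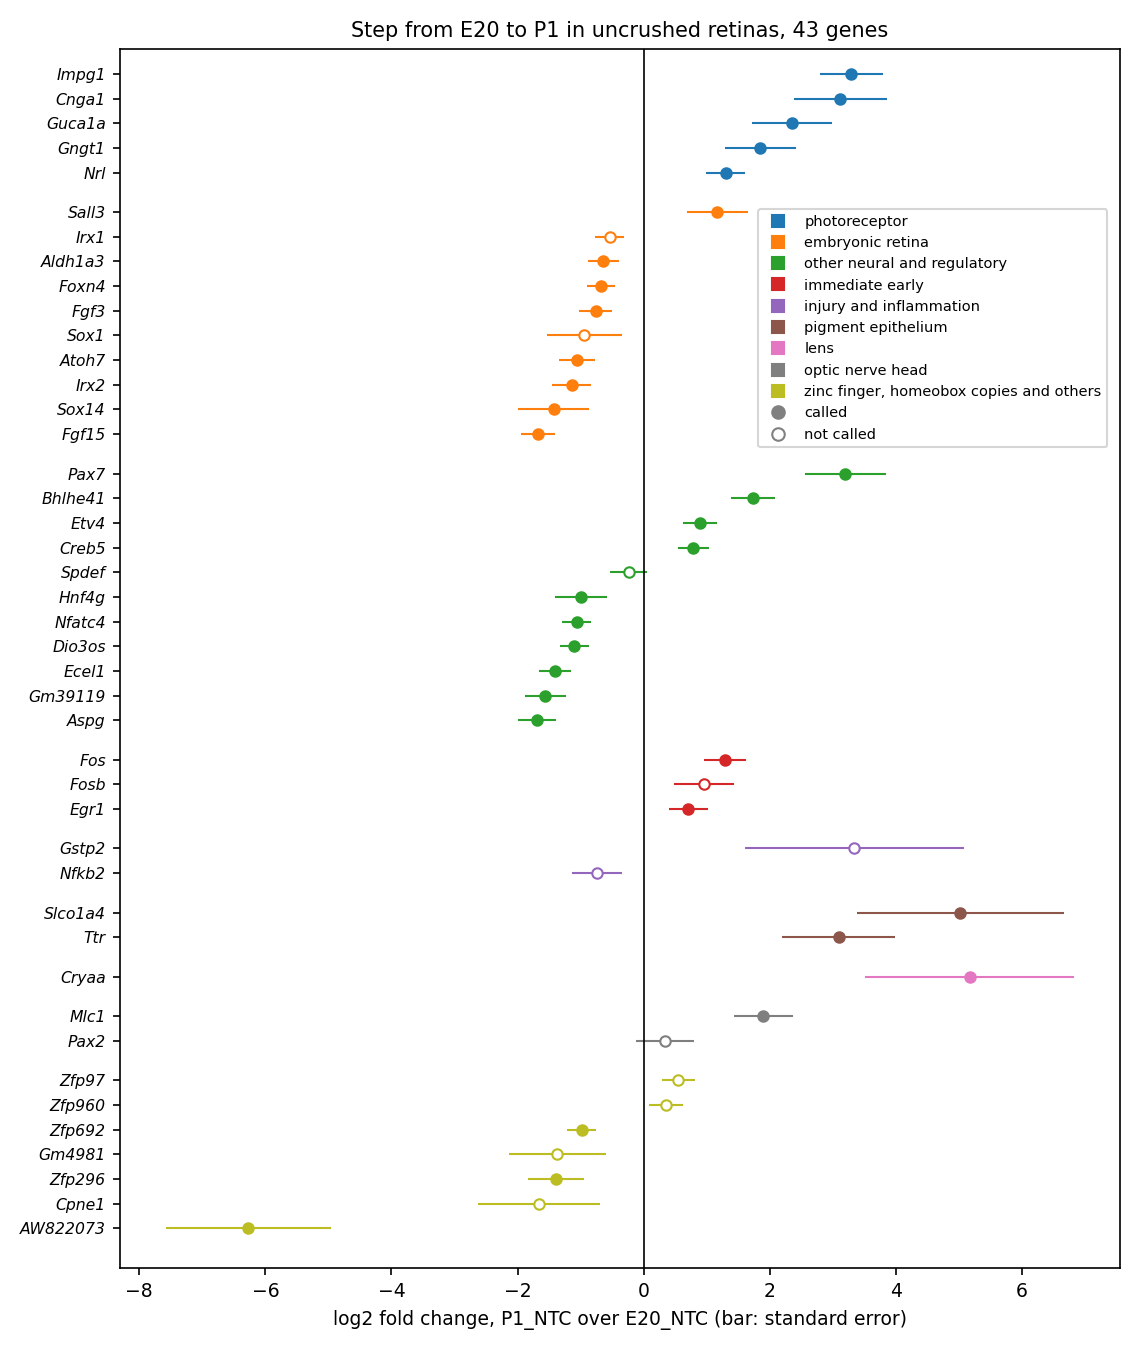
Log2 fold change of P1_NTC over E20_NTC for 43 genes, by gene list, with the standard error as bars. Filled points are called genes, 16 higher and 16 lower, and open points the 11 that were not called. The photoreceptor genes lie right of 0 and most genes of the embryonic retina left of it.

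All 6 photoreceptor genes were called higher in P1_NTC, with a median log2 fold change of 2.52. The study listed all 6 for a rise from E20 to postnatal day 3 (P3), in the same E20_NTC libraries. The rise of the list is therefore not independent of that choice. In none of the 6 did a P1_NTC library overlap an E20_NTC library. Of those named here, Cnga1 and Impg1 had only 3 and 4 counts in E20_NTC, and reached the minimum of 10 counts through P1_NTC. When 10 counts were required in each of at least 3 libraries, Cnga1 was not tested and 5 of the list were called higher. Summed FPKM of the 6 genes was 44.5, 45.7, 50.2 and 56.8 in P1_NTC, against 13.0, 15.8 and 27.6 in E20_NTC. Nrl, the transcription factor that sets rod fate, made up most of this sum. It had 41.1, 42.0, 42.4 and 45.3 FPKM in P1_NTC replicates 1 to 4, against 11.9, 14.7 and 25.5 FPKM in E20_NTC replicates 1 to 3. The P1_NTC libraries lay close together, while E20_NTC replicate 3 was well above replicates 1 and 2. The log2 fold change was 1.30 ± 0.31 (adjusted p = 0.0122), the smallest of the list.

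The genes of the phototransduction cascade followed at far lower levels. Guca1a, which encodes the calcium sensor GCAP1 that activates guanylate cyclase, had 1.59, 1.96, 4.99 and 7.52 FPKM in P1_NTC, against 0.711, 0.567 and 1.07 FPKM in E20_NTC. This came to a log2 change of 2.35 ± 0.63 (adjusted p = 0.0172). Gngt1, which encodes a subunit of the rod G protein transducin, had 1.24, 1.41, 2.39 and 3.50 FPKM in P1_NTC, against 0.353, 0.387 and 1.04 FPKM in E20_NTC. edgeR gave a log2 change of 1.85 ± 0.56 (adjusted p = 0.0245). In P1_NTC both genes were higher in the replicates without Kdm5d, by 1.79 for Guca1a and 1.13 for Gngt1 on the log2 scale. The step was 1.46 among libraries with Kdm5d and 2.52 among those without for Guca1a, and 1.84 and 1.47 for Gngt1. Without P1_NTC replicates 3 and 4 the step of Guca1a was 1.18 and that of Gngt1 1.16, both still called, and without E20_NTC replicate 3 that of Gngt1 was 2.52.

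Cnga1, the alpha subunit of the rod channel gated by cyclic nucleotides, was counted on few fragments. It had 14, 13, 6 and 7 counts in P1_NTC, against 0, 1 and 2 counts in E20_NTC. The sums of 40 and 3 counts gave a ratio of 9.77 per library total, with a 95% interval of 3.11 to 49.4 that covers counting error only. edgeR gave a log2 fold change of 3.12 ± 0.74 (adjusted p = 0.0122), which was 2.51 without E20_NTC replicate 1, 4.05 without replicate 3 and 4.49 without the 3 libraries that lack Kdm5d. The step was 4.81 among libraries with Kdm5d and 1.49 among those without. Unlike Guca1a and Gngt1, Cnga1 was 1.08 lower on the log2 scale in the P1_NTC replicates without Kdm5d.

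Outside the cascade, Impg1, a proteoglycan of the matrix between photoreceptors, had 19, 8, 14 and 17 counts in P1_NTC, against 1, 1 and 2 counts in E20_NTC. The ratio of the sums was 10.6 (95% interval 3.93 to 40.3, counting error only). The log2 fold change of 3.29 ± 0.50 (adjusted p = 0.00662) was the largest of the list. Among libraries with Kdm5d the step of Impg1 was 3.81 and among those without it 2.75. Cnga1 and Impg1 stayed under 0.4 FPKM in every P1_NTC library.

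**Figure D2:**
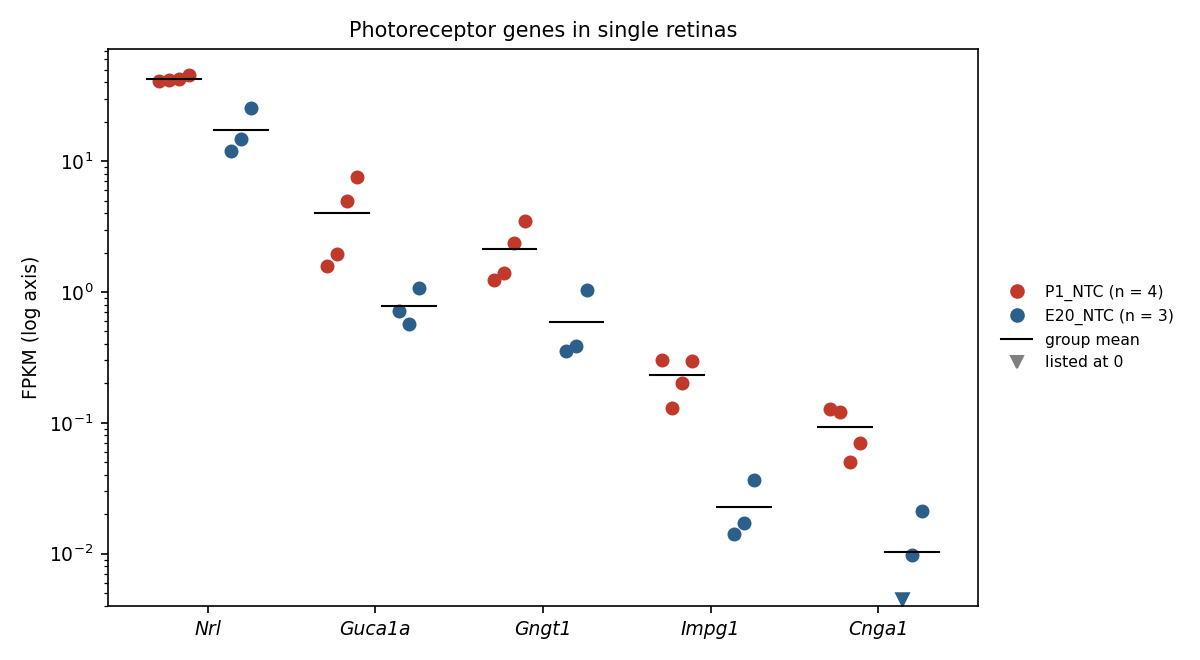
FPKM (log axis) of 5 photoreceptor genes in each of 4 P1_NTC and 3 E20_NTC libraries, with group means as bars and a triangle for a library listed at 0. In each gene the 4 P1_NTC libraries lie above the 3 E20_NTC libraries, and Nrl stands far above the other genes.

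Of 10 genes listed for the embryonic retina, 7 were called lower in P1_NTC and 1, Sall3, higher. Sox1 and Irx1 were not called. The study listed those 7 for a fall from E20 to P3, in the same E20_NTC libraries. Sall3, Sox1 and Irx1 were listed for a change after crush. The split of the calls thus follows how the genes were chosen. The median log2 fold change of the list was −0.85. Summed FPKM was 142.6, 151.6, 165.0 and 128.3 in P1_NTC, against 286.8, 272.0 and 343.8 in E20_NTC, so the groups stood apart. With TMM scaling only 3 of the 7 (Fgf15, Atoh7 and Irx2) were still called, with the direction of every member as before.

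Fgf15, a fibroblast growth factor of retinal progenitors, was the most abundant of all members at E20. It had 39.5, 46.5, 40.0 and 24.8 FPKM in P1_NTC, against 122.6, 107.3 and 131.4 FPKM in E20_NTC. That was the largest fall of the list, with a log2 fold change of −1.67 ± 0.27 (adjusted p = 0.00662). Fgf3, another fibroblast growth factor, had 8.54, 9.07, 10.8 and 8.30 FPKM in P1_NTC, against 13.5, 12.4 and 20.9 FPKM in E20_NTC. The log2 fold change was −0.76 ± 0.26 (adjusted p = 0.0349), and −0.50 without E20_NTC replicate 3, which is under the fold threshold, as was −0.56 without the 3 libraries that lack Kdm5d.

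Both growth factor genes lie on chromosome 7 of mm10 in the same direction, Fgf3 at chr7:144838083-144844436 and Fgf15 at chr7:144896531-144900953, with 52094 bases between them. Gm39119, a predicted gene of the opposite strand at chr7:144899313-144910085, overlaps Fgf15. It had 2.56, 2.73, 2.48 and 1.27 FPKM in P1_NTC, against 7.23, 5.34 and 7.54 FPKM in E20_NTC, a log2 fold change of −1.56 ± 0.32 (adjusted p = 0.00789), with steps of −1.27 among libraries with Kdm5d and −1.96 among those without. Exons of the antisense genes Gm26793 and Gm39119 together cover 25.7% of the exon bases of Fgf15. The strand setting of the counting is not stated, so part of the Fgf15 reads may not be separable from those of these genes. Fgf15 and Gm39119 themselves share only 26 exon bases, 2.73% of those of Gm39119.

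Atoh7, the factor needed for ganglion cells to form, had 29.5, 29.1, 36.9 and 32.8 FPKM in P1_NTC, against 53.7, 50.2 and 96.1 FPKM in E20_NTC. It fell by 1.06 ± 0.29 on the log2 scale (adjusted p = 0.0178), and its steps with and without Kdm5d were −0.83 and −1.46. Foxn4, a forkhead factor of progenitors that favours amacrine and horizontal cells, had 39.3, 39.9, 38.4 and 29.9 FPKM in P1_NTC, against 64.1, 61.7 and 50.9 FPKM in E20_NTC. On the log2 scale the change was −0.68 ± 0.22 (adjusted p = 0.0299). With the replicate block Foxn4 was at −0.58 and with TMM scaling at −0.45, both under the fold threshold. Without P1_NTC replicates 3 and 4 Foxn4 was at −0.57, also under it. Atoh7 kept its call with the block and with TMM scaling, and E20_NTC replicate 3 was the highest of its group in Atoh7, as it was in Nrl.

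Irx2 and Irx1, Iroquois homeodomain factors that lie 665096 bases apart on chromosome 13, were both lower in every P1_NTC library than in any E20_NTC library. Irx2 had 4.62, 5.10, 2.46 and 2.95 FPKM in P1_NTC, against 8.89, 8.56 and 7.65 FPKM in E20_NTC, and a log2 fold change of −1.14 ± 0.31 (adjusted p = 0.0172). Irx1 had 1.46, 1.35, 1.86 and 1.80 FPKM in P1_NTC, against 2.27, 2.17 and 2.64 FPKM in E20_NTC. At −0.54 ± 0.23 (adjusted p = 0.0621) Irx1 missed the fold threshold, which it passed with the replicate block (−0.61, adjusted p = 0.0285), without P1_NTC replicate 3 (−0.62) or without P1_NTC replicate 4 (−0.60). It also passed with detection of Kdm5d as a term (−0.61), without P1_NTC replicates 3 and 4 (−0.75) and without the 3 libraries that lack Kdm5d (−0.66). Irx2 steps were −0.85 among libraries with Kdm5d and −1.51 among those without. In P1_NTC, Irx2 was 0.86 lower on the log2 scale in the replicates without Kdm5d, while Irx1 was 0.38 higher there.

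Aldh1a3, an enzyme that makes retinoic acid, had 12.8, 13.1, 17.9 and 14.8 FPKM in P1_NTC, against 17.7, 24.9 and 25.8 FPKM in E20_NTC, and the groups overlapped by 1 library. Its log2 fold change of −0.64 ± 0.25 (adjusted p = 0.0541) was not called without E20_NTC replicate 2 (−0.57), E20_NTC replicate 3 (−0.54) or P1_NTC replicate 1 (−0.58), nor with 1 fit of all 6 groups (adjusted p = 0.238). Sox14, an HMG box factor, had 18, 13, 10 and 2 counts in P1_NTC, against 25, 38 and 21 counts in E20_NTC. Its log2 fold change of −1.43 ± 0.57 (adjusted p = 0.0571) was not called without E20_NTC replicate 2 (−1.11), P1_NTC replicate 3 (−1.36) or P1_NTC replicates 3 and 4 together (−0.89). With Kdm5d the Sox14 step was −0.97 and without it −2.01. Sox1, an HMG box factor of neural progenitors, had 4, 15, 6 and 10 counts in P1_NTC, against 9, 12 and 27 counts in E20_NTC. At −0.94 ± 0.60 (adjusted p = 0.177) Sox1 was not called, but it was with the replicate block (−1.05, adjusted p = 0.025) and without P1_NTC replicate 2 (−1.33). Its steps were −0.09 among libraries with Kdm5d and −1.96 among those without. Calls of these genes rested on few libraries.

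Sall3, a zinc finger factor of horizontal and cone cells, went the other way. It had 6.29, 6.998, 16.3 and 12.8 FPKM in P1_NTC, against 3.27, 3.40 and 7.48 FPKM in E20_NTC, and the groups overlapped. The log2 fold change was 1.17 ± 0.48 (adjusted p = 0.0619). In both groups the libraries without Kdm5d were higher, by 1.15 in P1_NTC and by 1.17 in E20_NTC on the log2 scale. The step was 1.00 among libraries with Kdm5d and 0.98 among those without. The call was lost without E20_NTC replicate 1 (0.96), E20_NTC replicate 2 (0.98), P1_NTC replicate 3 (0.89) or P1_NTC replicate 4 (1.06), and without P1_NTC replicates 3 and 4 the value was 0.50.

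**Figure D3:**
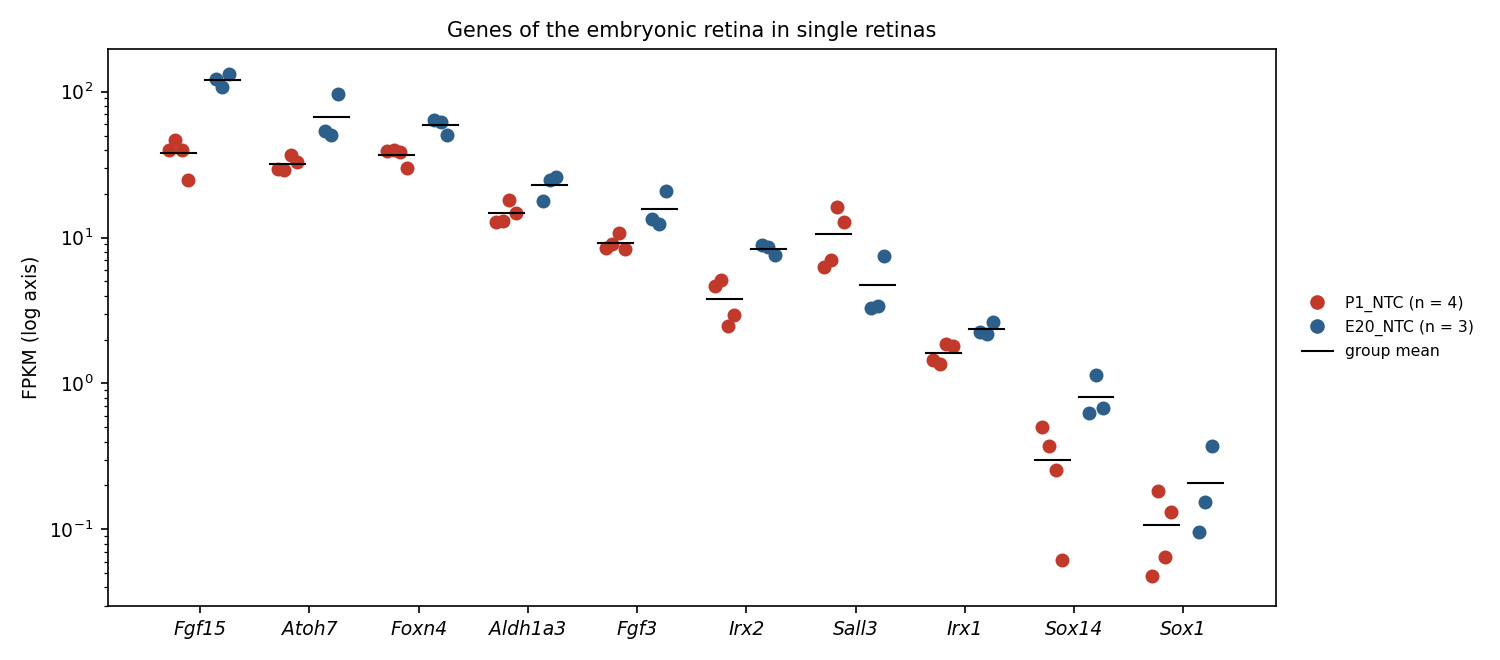
FPKM (log axis) of 10 genes listed for the embryonic retina in each of 4 P1_NTC and 3 E20_NTC libraries, with group means as bars. In 7 genes, Irx1 among them, the P1_NTC libraries lie below all E20_NTC libraries, and in Sall3 the P1_NTC mean is the higher one.

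Among 11 other neural and regulatory genes, 4 were called higher, 6 lower and 1, Spdef, was not called. Pax7, a paired box factor of the dorsal neural tube and of neural crest and muscle precursors, had 38, 37, 19 and 9 counts in P1_NTC, against 4, 3 and 1 counts in E20_NTC. The fitted step was 3.20 ± 0.64 (adjusted p = 0.00789), and within libraries with and without Kdm5d the step was 3.47 and 3.60. P1_NTC replicates without Kdm5d had the lower Pax7 levels, by 1.44 on the log2 scale. Bhlhe41, a repressor of the circadian clock also called Dec2, had 0.715, 0.587, 1.26 and 1.02 FPKM in P1_NTC, against 0.339, 0.221 and 0.247 FPKM in E20_NTC. The log2 fold change was 1.73 ± 0.35 (adjusted p = 0.00789), with steps of 1.19 among libraries with Kdm5d and 2.23 among those without. An antisense gene covers 19% of the exon bases of Bhlhe41.

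Etv4, an ETS factor that FGF signals are known to switch on, was higher at P1 while both listed FGF genes were lower. It had 7.63, 8.05, 10.8 and 8.89 FPKM in P1_NTC, against 4.93, 5.88 and 3.51 FPKM in E20_NTC. The log2 fold change was 0.89 ± 0.27 (adjusted p = 0.0245), and without the 3 libraries that lack Kdm5d it was 0.54, under the fold threshold. Etv4 was 1.46-fold higher at P1 among libraries with Kdm5d and 2.83-fold higher among those without. Creb5, a bZIP factor that binds cyclic AMP response elements, had 0.150, 0.125, 0.174 and 0.178 FPKM in P1_NTC, against 0.101, 0.0964 and 0.0743 FPKM in E20_NTC. This came to a log2 change of 0.79 ± 0.25 (adjusted p = 0.028), and it was not called without P1_NTC replicates 3 and 4 (0.60), without all 3 libraries that lack Kdm5d (0.47) or with limma on log2(FPKM + 0.1) (0.43). The Creb5 step was 0.48 among libraries with Kdm5d, against 1.24 among those without.

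The 6 genes called lower here include enzymes, a noncoding transcript and transcription factors. Aspg, an asparaginase, had 14, 18, 14 and 9 counts in P1_NTC, against 64, 36 and 33 counts in E20_NTC, a log2 fold change of −1.69 ± 0.30 (adjusted p = 0.00662). Ecel1, a membrane metalloprotease of neurons, had 0.778, 1.11, 1.02 and 0.801 FPKM in P1_NTC, against 2.63, 2.79 and 1.97 FPKM in E20_NTC, a log2 fold change of −1.41 ± 0.25 (adjusted p = 0.00662). In both genes the 4 P1_NTC libraries lay well below the E20_NTC libraries, and in Aspg E20_NTC replicate 1 stood above the others. Dio3os, a noncoding transcript opposite the thyroid hormone deiodinase gene Dio3, had 6.06, 7.14, 5.55 and 5.45 FPKM in P1_NTC, against 14.3, 14.0 and 10.6 FPKM in E20_NTC. edgeR gave a log2 change of −1.10 ± 0.23 (adjusted p = 0.00789). Nfatc4, a factor that calcineurin activates, had 2.28, 2.01, 2.41 and 1.65 FPKM in P1_NTC, against 4.92, 4.04 and 4.12 FPKM in E20_NTC, a log2 fold change of −1.06 ± 0.23 (adjusted p = 0.00929).

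Hnf4g, a nuclear receptor, had 0.639, 0.291, 0.279 and 0.315 FPKM in P1_NTC, against 0.767, 0.471 and 1.04 FPKM in E20_NTC. Its groups overlapped through P1_NTC replicate 1, and the log2 fold change was −0.99 ± 0.41 (adjusted p = 0.0621). It was not called without E20_NTC replicate 1 (−0.98), E20_NTC replicate 3 (−0.70), P1_NTC replicate 2 (−0.88), P1_NTC replicate 3 (−0.86), P1_NTC replicate 4 (−0.91) or the last 2 together (−0.70), nor without the 3 libraries that lack Kdm5d (−0.43). Hnf4g steps were −0.44 among libraries with Kdm5d and −1.81 among those without. Spdef, an ETS factor of secretory epithelia, lay between 0.729 and 1.22 FPKM in P1_NTC and between 0.830 and 1.56 FPKM in E20_NTC, with a log2 fold change of −0.24 ± 0.30 (adjusted p = 0.479).

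The immediate early genes are switched on within minutes of a stimulus, and 2 of 3 were called higher in P1_NTC. Fos, a subunit of the AP-1 factor, had 0.886, 0.551, 1.27 and 0.758 FPKM in P1_NTC, against 0.374, 0.316 and 0.367 FPKM in E20_NTC, and the groups did not overlap. The step came to 1.29 ± 0.33 (adjusted p = 0.0167), but with 1 fit of all 6 groups it was not called (adjusted p = 0.107). Egr1, a zinc finger factor, had 1.29, 1.46, 1.02 and 0.682 FPKM in P1_NTC, against 0.611, 0.718 and 0.711 FPKM in E20_NTC. P1_NTC replicate 4 lay within the E20_NTC libraries, and the log2 fold change was 0.71 ± 0.31 (adjusted p = 0.0691). Leaving out any library other than P1_NTC replicate 4 ended the call of Egr1. The values were then 0.64, 0.75 and 0.74 without E20_NTC replicates 1, 2 and 3, and 0.63, 0.55 and 0.75 without P1_NTC replicates 1, 2 and 3. With 1 fit of all 6 groups it was not called either (adjusted p = 0.275). Egr1 steps were 1.06 among libraries with Kdm5d and 0.28 among those without. Fosb, another AP-1 subunit, had 4, 4, 11 and 6 counts in P1_NTC, against 2, 3 and 4 counts in E20_NTC. At 0.96 ± 0.48 (adjusted p = 0.107) it was not called, but it was without E20_NTC replicate 3 (1.29), P1_NTC replicate 1 (1.11) or P1_NTC replicate 2 (1.11), and with median ratios (adjusted p = 0.0767) or TMM scaling (adjusted p = 0.0947).

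Genes that are abundant in tissues beside the neural retina were among the largest increases at P1, and they differed several-fold between libraries of 1 group. Ttr, the carrier of thyroid hormone and retinol that the pigment epithelium makes, had 4.32, 4.74, 21.04 and 16.1 FPKM in P1_NTC, against 0.339, 1.07 and 2.67 FPKM in E20_NTC. On the log2 scale the change was 3.09 ± 0.90 (adjusted p = 0.0218), and 4.04 without E20_NTC replicate 3. Ttr was 2.05 higher on the log2 scale in the P1_NTC replicates without Kdm5d and 1.99 higher in the E20_NTC replicate without it. Within libraries with and without Kdm5d the step was 2.76 and 2.82, and without P1_NTC replicates 3 and 4 it was 1.75, still called.

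Slco1a4, an organic anion transporter listed with the pigment epithelium, had 4, 2, 75 and 29 counts in P1_NTC, against 0, 0 and 2 counts in E20_NTC. Nearly all of its P1_NTC counts came from the replicates without Kdm5d. The sums of 110 and 2 counts gave a ratio of 40.3 (95% interval 10.9 to 337, counting error only, without the spread between libraries). The log2 fold change was 5.02 ± 1.64 (adjusted p = 0.0299). It moved to 3.94 without P1_NTC replicate 3, 4.42 without E20_NTC replicate 1 and 7.75 without E20_NTC replicate 3, and with the remaining P1_NTC replicates 1 and 2 alone the gene fell under the minimum of 10 counts. In FPKM the groups overlapped. Slco1a4 reached the minimum of 10 counts through P1_NTC, the group where it was high. It was not tested when 10 counts were required in each of at least 3 libraries.

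Cryaa, or alpha A crystallin, an abundant lens protein, had 7, 1, 9 and 47 counts in P1_NTC, against 0, 1 and 0 counts in E20_NTC. P1_NTC replicate 4 held most of them, and the groups overlapped. The ratio of the sums of 64 and 1 counts was 46.9 (95% interval 8.12 to 1880, counting error only, without the spread between libraries). The log2 fold change was 5.17 ± 1.66 (adjusted p = 0.0293), 3.57 without P1_NTC replicate 4, 7.08 without E20_NTC replicate 2 and 3.54 with the replicate block, called each time. An antisense gene covers 14.1% of its exon bases.

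The list of the optic nerve head held Mlc1 and Pax2. Mlc1, a membrane protein of astrocytes, had 2.34, 3.01, 1.52 and 1.57 FPKM in P1_NTC, against 0.480, 0.928 and 0.285 FPKM in E20_NTC. It was called higher at a log2 fold change of 1.90 ± 0.47 (adjusted p = 0.0146), with steps of 1.96 and 2.44 among libraries with and without Kdm5d. Pax2, a paired box factor of the optic stalk, had 1.57, 1.84, 1.24 and 0.848 FPKM in P1_NTC, against 1.04, 1.73 and 0.491 FPKM in E20_NTC. The groups overlapped, and at 0.34 ± 0.46 (adjusted p = 0.495) Pax2 was not called, though it was with the replicate block (0.62, adjusted p = 0.0214). Pax2 steps with and without Kdm5d were 0.33 and 1.11. In both genes and both groups the libraries with Kdm5d had the higher levels.

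Summed FPKM of Ttr and Slco1a4 was 4.36, 4.76, 21.7 and 16.4 in P1_NTC, against 0.339, 1.07 and 2.69 in E20_NTC. P1_NTC replicates 3 and 4 had the most of it and also the most Guca1a and Gngt1, and the part of pigment epithelium RNA in those results was not tested. Nrl was 0.07 higher on the log2 scale in P1_NTC libraries without Kdm5d than in those with it, and 0.95 higher in the E20_NTC library without it, with a step of 1.65 among libraries with Kdm5d and 0.78 among those without.

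**Figure D4:**
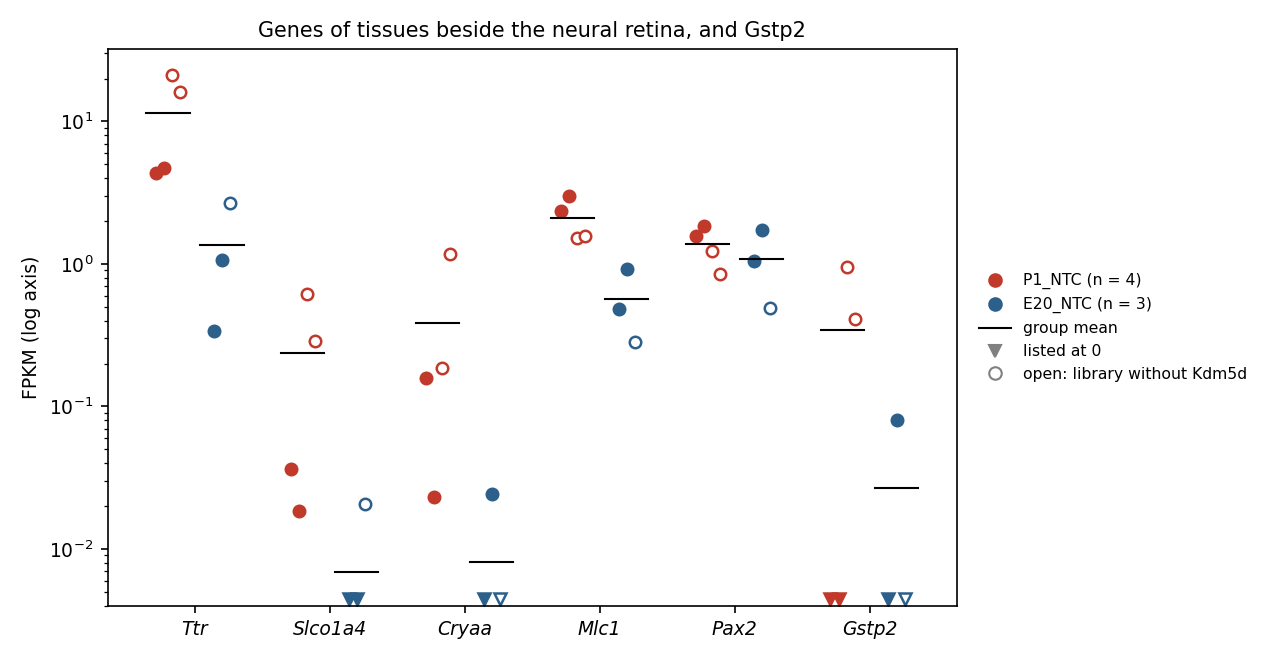
FPKM (log axis) of Ttr, Slco1a4, Cryaa, Mlc1, Pax2 and Gstp2 in each of 4 P1_NTC and 3 E20_NTC libraries, with group means as bars, open symbols for libraries without Kdm5d and triangles for libraries listed at 0. Within each age, Ttr is highest in the libraries without Kdm5d and Mlc1 in those with it, and Gstp2 at P1 was found only in the replicates without Kdm5d.

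None of the genes of injury and inflammation was called. Gstp2, a glutathione S-transferase, had 0, 0, 14 and 5 counts in P1_NTC, against 0, 1 and 0 counts in E20_NTC. The ratio of the sums of 19 and 1 counts was 13.9 (95% interval 2.21 to 578, counting error only, without the spread between libraries). The log2 fold change of 3.34 ± 1.74 had an adjusted p of 0.114. Gstp2 was called with the replicate block (3.01, adjusted p = 0.0114) and without P1_NTC replicate 1 (3.74) or P1_NTC replicate 2 (3.74). Median ratios (adjusted p = 0.0994), 1 fit of all 6 groups (adjusted p = 0.0646) and detection of Kdm5d as a term (adjusted p = 0.0723) also gave a call of Gstp2. Nfkb2, an NF-kappaB subunit, had 10, 20, 33 and 29 counts in P1_NTC, against 47, 40 and 27 counts in E20_NTC. At −0.74 ± 0.40 (adjusted p = 0.124) it was not called, but it was with the replicate block (−0.97, adjusted p = 0.00693) and without P1_NTC replicate 4 (−0.94). Calls of Nfkb2 also came with 1 fit of all 6 groups (adjusted p = 0.0822), limma on log2(FPKM + 0.1) (adjusted p = 0.0908), detection of Kdm5d as a term (adjusted p = 0.049), without P1_NTC replicates 3 and 4 (−1.34) and without the 3 libraries that lack Kdm5d (−1.48). The step was −1.48 among libraries with Kdm5d and −0.01 among those without. Lcn2, the acute phase protein lipocalin 2, had 0, 1, 1 and 0 counts in P1_NTC and 0, 2 and 1 counts in E20_NTC, too few for a comparison at this depth.

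Of the 7 remaining genes, mostly zinc finger genes and copies of homeobox genes, 3 were called lower and none higher. Zfp692, a zinc finger factor, had 9.56, 9.84, 10.5 and 10.6 FPKM in P1_NTC, against 22.5, 22.0 and 15.2 FPKM in E20_NTC, a log2 fold change of −0.98 ± 0.23 (adjusted p = 0.0122), with steps of −1.20 among libraries with Kdm5d and −0.53 among those without. AW822073, which the tables class as homeobox, had 0 counts in all 4 P1_NTC libraries, against 2, 15 and 10 counts in E20_NTC. Set against a floor of 3 counts over the P1_NTC group, its E20_NTC sum of 27 counts was 12.3-fold higher per library total. That value leaves out counting error and spread between libraries at E20, so it is not a strict lower limit. AW822073 was called lower in edgeR (adjusted p = 0.0172). AW822073 reached the minimum of 10 counts through E20_NTC, and was not tested when 10 counts were required in each of at least 3 libraries. Its neighbour Gm4981, 9917 bases away on chromosome 10 and also classed as homeobox, had 0, 2, 1 and 2 counts in P1_NTC, against 2, 6 and 2 counts in E20_NTC. Gm4981 was at −1.37 ± 0.77 (adjusted p = 0.134) and was called only with the replicate block (−1.72, adjusted p = 0.0766) among the settings tried, with steps of −1.95 and −0.62 with and without Kdm5d.

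Zfp296, a zinc finger factor with 12.9% of its exon bases shared with an antisense gene, had 1, 2, 1 and 2 counts in P1_NTC, against 3, 5 and 4 counts in E20_NTC. Its log2 fold change of −1.39 ± 0.44 (adjusted p = 0.0571) was not called with DESeq2 (−1.46) or without E20_NTC replicate 2 (−1.18), E20_NTC replicate 3 (−1.32), P1_NTC replicate 1 (−1.24), P1_NTC replicate 3 (−1.20) or P1_NTC replicates 3 and 4 together (−1.38), nor without the 3 libraries that lack Kdm5d (−1.30). Cpne1, a calcium-binding copine, had 1 count in each P1_NTC library, against 2, 8 and 0 counts in E20_NTC, and shares 84.1% of its exon bases with genes of its own strand. At −1.66 ± 0.96 (adjusted p = 0.143) it was not called, but it was with the replicate block (−1.61, adjusted p = 0.0976), with 1 fit of all 6 groups (adjusted p = 0.0822) and without E20_NTC replicate 3 (−2.20). Zfp97 and Zfp960, similar zinc finger genes 31786 bases apart on chromosome 17 whose reads may not be separable, were at 0.55 ± 0.26 (adjusted p = 0.0842) and 0.36 ± 0.27 (adjusted p = 0.24). Zfp97 missed the fold threshold, which it passed without E20_NTC replicate 3 (0.65) or P1_NTC replicate 2 (0.68).

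The same step was measured in crushed retinas, which share no library with the uncrushed ones. There 15 of the 44 members tested were called higher and 15 lower in P1_ONC than in E20_ONC, where 68.9% of all 45 genes tested were called and 71.1% did not overlap between groups. Kdm5d was found in 2 of 3 P1_ONC and in 0 of 3 E20_ONC libraries, so its detection is uneven in this step. Of the 33 members called without crush, 21 were called in the same direction after crush and 0 in the opposite one. Of the 32 that were tested in both steps, 28 had the same sign. Crushed and uncrushed mice of an age came from the same litter, so agreement of the steps cannot tell age from litter or library series. The 21 were 11 higher genes, among them all 6 photoreceptor genes with a median log2 fold change of 2.58, and 10 lower genes, among them Fgf15, Fgf3, Atoh7, Foxn4, Aldh1a3 and Sox14.

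Nrl had 31.7, 24.7 and 26.5 FPKM in P1_ONC, against 11.2, 8.46 and 8.83 FPKM in E20_ONC, a log2 fold change of 1.54 ± 0.24 (adjusted p = 0.00243). Fgf15 had 50.03, 51.9 and 38.5 FPKM in P1_ONC, against 196.6, 304.4 and 251.7 FPKM in E20_ONC, a log2 fold change of −2.42 ± 0.28 (adjusted p = 0.00138). In both genes the groups stood clearly apart, as they did without crush. Dio3os, Irx2, Aspg, Hnf4g, Zfp296, Zfp692, Sall3, Creb5, Bhlhe41, Etv4 and Ttr were called only without crush, and Slco1a4, with 4 counts in P1_ONC and 5 in E20_ONC, was not tested after it. A call in only 1 of the steps does not show that the steps differ.

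The difference between the steps, crushed minus uncrushed, was tested as an interaction over the libraries of both steps, and 9 of 46 genes, or 19.6%, had an adjusted p under 0.1 and were called. The step was more negative or less positive after crush in 6 of them. The tested difference equals the crush effect at P1 minus that at E20. The study listed Gstp2, Etv4, Mlc1, Fosb and Irx1 for a change after crush at E20 in these same libraries. Ttr, Fgf3, Gm39119 and Bhlhe41 were listed for a change from E20 to P3 without crush, a comparison that used the same E20_NTC libraries. None of the 9 calls here is therefore independent of the choice of genes. All E20_ONC libraries lack Kdm5d, so its detection is uneven in this test too. Ttr differed by −4.23 ± 1.32 on the log2 scale (adjusted p = 0.0597), with 0.773, 2.58 and 0.739 FPKM in P1_ONC, against 1.93, 6.25 and 0.825 FPKM in E20_ONC. Its step after crush was −1.13 (adjusted p = 0.278), against 3.09 without it. Gstp2 differed by −7.02 ± 2.08 (adjusted p = 0.0568), with 0, 1 and 2 counts in P1_ONC, against 5, 24 and 8 counts in E20_ONC. Bhlhe41 differed by −2.23 ± 0.54 (adjusted p = 0.0568) and Etv4 by −1.06 ± 0.32 (adjusted p = 0.0568), neither being called after crush. Fgf3 (−1.45, adjusted p = 0.0568) and Gm39119 (−1.24, adjusted p = 0.0653) fell in both steps, and further after crush.

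In the other 3 genes the step was more positive after crush. Mlc1 differed by 3.11 ± 0.93 (adjusted p = 0.0568), with 50, 35 and 151 counts in P1_ONC, against 1, 1 and 4 counts in E20_ONC. Fosb differed by 2.39 ± 0.76 (adjusted p = 0.0597), with 240, 194 and 128 counts in P1_ONC, against 7, 22 and 19 counts in E20_ONC. Irx1 differed by 1.31 ± 0.44 (adjusted p = 0.0653) and was called in neither step. The photoreceptor genes were not among the 9. The number of differences called was 1 without E20_NTC replicate 1, 0 without E20_NTC replicate 2, 4 without E20_ONC replicate 2, 3 without P1_NTC replicate 3 and 5 with the replicate block.

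**Figure D5:**
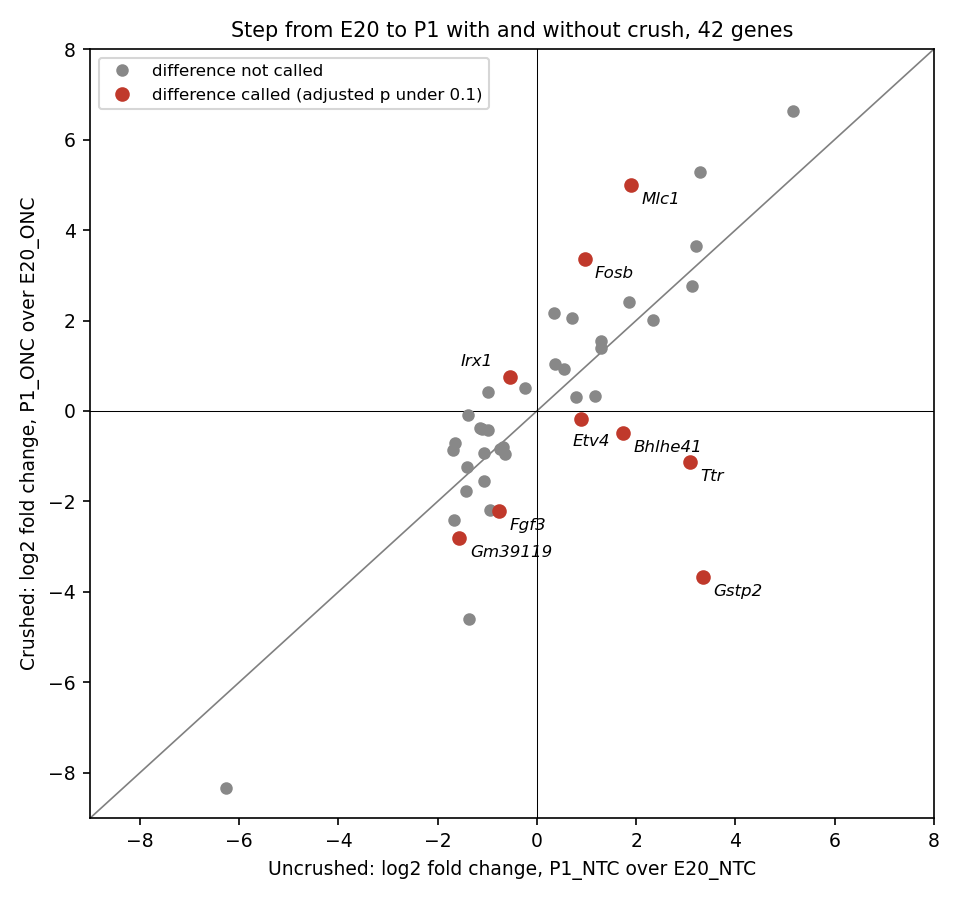
Log2 fold change of the step from E20 to P1 after crush (P1_ONC over E20_ONC, y axis) against that without crush (P1_NTC over E20_NTC, x axis) for 42 genes tested in both, with the line of equal change. Red points are the 9 genes whose steps differed at an adjusted p under 0.1, with Gstp2 and Ttr farthest below the line and Mlc1 and Fosb well above it.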

How the data were processed

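Single retinas gave 1 library each, and groups were taken from the sample labels. Per the study's methods and processing notes, the authors used HISAT2 2.0.5 and the mm10 genome for alignment and made the deposited counts, whole fragments per gene, with featureCounts 1.5.0-p3. The authors made the deposited FPKM values by dividing counts by gene length and a library total. That total was recovered as the count over the product of FPKM and gene length, rescaled to single bases and fragments, and used as library size. It agreed over genes but was a whole number in 0 of 21 libraries, so the scale may hold a further factor that the sources used here do not state. Repeated rows were used once.

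Comparisons of groups were fitted separately in edgeR 4.0.16 (R 4.3.3) with quasi-likelihood F tests and no trend, for genes whose counts summed to 10 or more. Adjustment was over the genes tested, not over a transcriptome. Nothing says that the libraries of a group share an animal, and each was taken as 1 replicate. No libraries agreed within sampling noise. The main fits were unpaired. Replicate numbers were taken as pairs only in the replicate block, an alternative fit, and the labels do not say that they mark a shared batch. It was tried because P1_NTC and E20_NTC libraries of the same number deviated together over the 44 genes (correlations 0.359, 0.223 and 0.288, Kdm5d left out). Same-numbered libraries also share detection of Kdm5d, and P1_NTC replicate 4 correlated at 0.322 with E20_NTC replicate 3.

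Alternatives were DESeq2 1.42.0, TMM factors, median ratios, no count filter and a filter of 10 counts per library, 1 fit of all 6 groups, a limit of 0.05 on the adjusted p, and adjustment as if 35000 genes had been tested. Others were limma 3.58.1 on log2 of the deposited FPKM with 0.1 or 1 added, a replicate block, detection of Kdm5d as a term, and leaving out each library. Leaving out libraries without Kdm5d was chosen after seeing the data. The scripts were tested on simulated data. Overlap of exons was read from GENCODE M21, where 40 of 45 genes had the coordinates of the tables, and promoters from RefSeq. Every gene of the tables other than Kdm5d was to be named, but 1 is not reported here and enters only the counts and sums. The genes, the lists and the tests were chosen with earlier results of these data known. Python 3.11.15 with scipy 1.17.1, pandas 2.3.3, numpy 2.4.6 and matplotlib 3.10.9 made the tables and plots.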

Additional observations from a re-analysis of the deposited data

Results flagged for a closer look

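In P1_NTC, 4 of 44 genes had a library far from the other 3 of its group (Dixon's test of the gap over the range, 95% limit), and chance flags about 1 in 20 groups. Cryaa was at 1.17 FPKM, Gm39119 at 1.27 FPKM and Foxn4 at 29.9 FPKM in replicate 4, and Hnf4g was at 0.639 FPKM in replicate 1. These were the highest values of the group for Cryaa and Hnf4g and the lowest for Gm39119 and Foxn4.

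The step from E20 to P1 differed between crushed and uncrushed retinas in 9 genes by edgeR's interaction test. The limits given above for this test, from the choice of genes and uneven detection of Kdm5d, hold here too. The differences, crushed minus uncrushed on the log2 scale, were −7.02 for Gstp2, −4.23 for Ttr, −2.23 for Bhlhe41, −1.45 for Fgf3, −1.24 for Gm39119, −1.06 for Etv4, 1.31 for Irx1, 2.39 for Fosb and 3.11 for Mlc1, with adjusted p from 0.0568 to 0.0653.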

How the results depend on the processing

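With p-values adjusted for 35000 genes, 0 genes were called in each direction of both steps, 0 in the interaction, 0 of the photoreceptor list and 0 of the embryonic list, because the tables hold only 46 genes and all others count as unchanged. With TMM factors 10 members were lower in the uncrushed step and 3 of the embryonic list, the calls of Sox14, Fgf3, Aldh1a3, Foxn4, Hnf4g and Zfp296 being lost and those of Fosb and Zfp97 gained. With limma on log2(FPKM + 1), which damps genes of low FPKM by its construction, 7 members were higher, 3 of them photoreceptor genes, and 15 of the 33 calls were lost. The fit of all 6 groups together lost the calls of Aldh1a3, Egr1 and Fos. With detection of Kdm5d as a term, 8 were lower after crush. The interaction gave 4 genes with 1 fit of all 6 groups, 0 at an adjusted p under 0.05 and 14 with limma on log2(FPKM + 1). The causes of the other moves were not tested.

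The replicate block gave 19 higher, 20 lower and 5 in the interaction. Calls then differed for Foxn4, which was lost, and for Gstp2, Pax2, Cpne1, Sox1, Gm4981, Nfkb2 and Irx1, which were gained, and for no other gene of the uncrushed step. The unpaired P1_NTC replicate 4 adds nothing to this fit, so pairing and the loss of that library cannot be told apart in it, and Nfkb2 and Irx1 were also called by leaving out that library alone, where Foxn4 kept its call.

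Leaving out 1 library gave 15 to 19 higher and 13 to 17 lower without crush, 13 to 15 higher and 13 to 17 lower after crush, 0 to 12 in the interaction, 6 photoreceptor genes in each case and 5 to 8 embryonic genes. Of the 33 calls, 26 held without each library and 13 held in every setting but that of 35000 genes. Uncalled Spdef ran from −0.43 to 0.04 (without E20_NTC replicates 1 and 2 in turn) and Pax2 from −0.01 to 0.84 (without E20_NTC replicates 3 and 2). Without P1_NTC replicates 3 and 4, 13 were higher and 14 lower, and without those and E20_NTC replicate 3, 13 and 15. At these totals, genes counted on few fragments, such as Cnga1, Lcn2 and Zfp296, have wide counting intervals.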
